A study of Homo sapiens with 27 samples.

Results

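The genes described here are 10 members of the bone morphogenetic protein (BMP) pathway in 786-O cells, a human clear cell renal cell carcinoma line that lacks functional VHL. They are the receptors BMPR1A, BMPR1B and BMPR2, the ligand genes BMP2, BMP4 and INHBA, the target genes ID1, ID2 and ID3, and SMAD7. They were selected by gene symbol and are 10 of the 57773 Ensembl identifiers in the table of raw RNA-seq counts. All cells carried Cas9 and lentiviral guide RNAs and were studied as selected populations, with 3 replicates in each of 9 populations, or 27 libraries. The control population, sgCtrl, received a control guide. The single mutant populations carried guides named sgKDM5C (#4 or #5) or sgKDM5D (#2 or #4), in which the guide numbers name different guides against the histone demethylase genes KDM5C, on the X chromosome, and KDM5D, its homologue on the Y chromosome. The 4 double mutant populations combined each sgKDM5C guide with each sgKDM5D guide. The share of edited cells and the number of founding cells in each population were not given in the sources used here, so a population is not known to be uniform.

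BMP ligands are secreted dimers that bring together type I receptors, such as BMPR1A and BMPR1B, and type II receptors, such as BMPR2. The activated receptors phosphorylate SMAD1, SMAD5 and SMAD9, which enter the nucleus with SMAD4 and induce target genes, among which the ID genes are the best known. ID proteins bind E proteins and keep them from DNA, and SMAD6 and SMAD7 are induced inhibitors that close the loop. INHBA encodes the activin A subunit, a ligand that signals mainly through SMAD2 and SMAD3.

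The promoters of the 3 ID genes are shown because these genes are read as a common output of BMP signalling, whereas ID2 was called in 4 mutant populations, ID3 in 1 and ID1 in 0. ID1 was also lower than in the control in most mutant populations, by less than the 1.5-fold that a call required. Each sequence is the 250 bases before the RefSeq transcription start on GRCh38.p14, written 5′ to 3′ on the strand of the gene: chr20:31605039-31605288 on the plus strand for ID1, chr2:8681806-8682055 on the plus strand for ID2 and chr1:23559502-23559751 on the minus strand for ID3. Capitals mark the CCAAT box and the SMAD binding element CAGAC, each on either strand.
ID1: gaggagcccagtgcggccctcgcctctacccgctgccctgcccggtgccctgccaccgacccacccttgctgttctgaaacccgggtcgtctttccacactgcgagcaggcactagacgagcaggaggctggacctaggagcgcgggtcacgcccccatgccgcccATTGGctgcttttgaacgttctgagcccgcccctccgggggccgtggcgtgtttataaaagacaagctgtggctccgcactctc
ID2: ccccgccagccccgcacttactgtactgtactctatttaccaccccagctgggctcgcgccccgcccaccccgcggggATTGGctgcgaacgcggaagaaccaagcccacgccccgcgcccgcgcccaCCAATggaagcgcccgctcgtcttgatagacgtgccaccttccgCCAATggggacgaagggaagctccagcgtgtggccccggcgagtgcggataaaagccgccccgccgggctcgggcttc
ID3: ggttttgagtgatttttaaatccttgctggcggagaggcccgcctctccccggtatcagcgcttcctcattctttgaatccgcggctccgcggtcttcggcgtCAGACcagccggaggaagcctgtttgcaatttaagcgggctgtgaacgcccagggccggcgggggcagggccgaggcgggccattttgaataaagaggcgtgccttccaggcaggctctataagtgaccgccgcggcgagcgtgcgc
The ID2 window held 3 CCAAT boxes, the ID1 window 1 and the ID3 window 0, and CAGAC was found 1 time, in ID3. These are matches of letters and not measured binding sites, and the motifs were chosen with the sequences in view. All 3 windows were rich in CpG, with 19, 29 and 24 CpG dinucleotides in ID1, ID2 and ID3 against a median of 11 over 35116 promoter windows. RefSeq windows were found for 9 of the 10 genes, 15 windows in all. CCAAT occurred in 5 of these 15 windows and in 32% of all windows, CAGAC in 7 and 38.0%, the BMP response element core GGCGCC in 2 and 16.4%, and the E-box CANNTG in 9 and 61.8%, searched on both strands.

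Libraries held 20172482 to 43383929 counts, with a median of 26290323. Levels are given in CPM, counts scaled to a common library size with TMM factors, as edgeR computes them. A gene was called in a comparison when edgeR's quasi-likelihood test gave a Benjamini-Hochberg adjusted p under 0.001 over all 17016 tested genes, with a change of more than 1.5-fold. KDM5C mRNA was 124 ± 7.28 CPM in sgCtrl (SD, n = 3), 35.0 and 33.2 CPM in the sgKDM5C populations and 34.7 to 43.6 CPM in double mutant cells. KDM5D mRNA was higher than the 12.8 CPM of sgCtrl in all 8 mutant populations, at 28.4 and 44.6 CPM in the sgKDM5C populations, 34.7 and 19.9 CPM in the sgKDM5D populations and 25.4 to 44.3 CPM in double mutant cells, so counts give no check of the sgKDM5D labels. The renal markers PAX8 (254 to 392 CPM) and PAX2 (7.89 to 38.5 CPM) were present in each population, and 7 markers of other cell types summed to 0.748 to 1.98 CPM. On the first principal component of the deviations from the population means, 4 libraries, also the last 4 columns of the table (24 to 27), scored highest, at 11.7 to 18.5 against -12.8 to 6.87 for the others: replicate 2 of sgCtrl, replicate 2 of sgKDM5C #5, replicate 1 of sgKDM5C #4/sgKDM5D #2 and replicate 3 of sgKDM5C #4/sgKDM5D #4. Without them the 8 comparisons with sgCtrl made 15 calls among the 10 genes, of which 13 were the calls made with them. In bulk RNA, fewer cells that express a gene and less RNA per cell cannot be told apart.

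Of the 10 genes, 5 were called in at least 1 mutant population. INHBA was higher in 4 mutant populations and ID2 lower in 4, BMPR1B was higher in 2 and lower in 1, and BMP4 rose and ID3 fell in sgKDM5D #4. BMPR1A, BMPR2, BMP2, ID1 and SMAD7 were called in no population. Without BMP4, which passed the filter on low counts only through sgKDM5D #4, 12 of 72 gene by population pairs were called, against 8.29% of such pairs over all tested genes, and 4 of 9 genes were called at least once, against 32.4%. Levels per kilobase of exon, as medians over the 9 populations, ran from 84.1 CPM for ID3 and 80.9 for ID1 through 18.4 for ID2, 12.2 for INHBA and 10.9 for SMAD7 to 4.56 for BMPR2, 4.47 for BMP2, 4.05 for BMPR1A and 0.957 for BMPR1B.

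**Figure D1:**
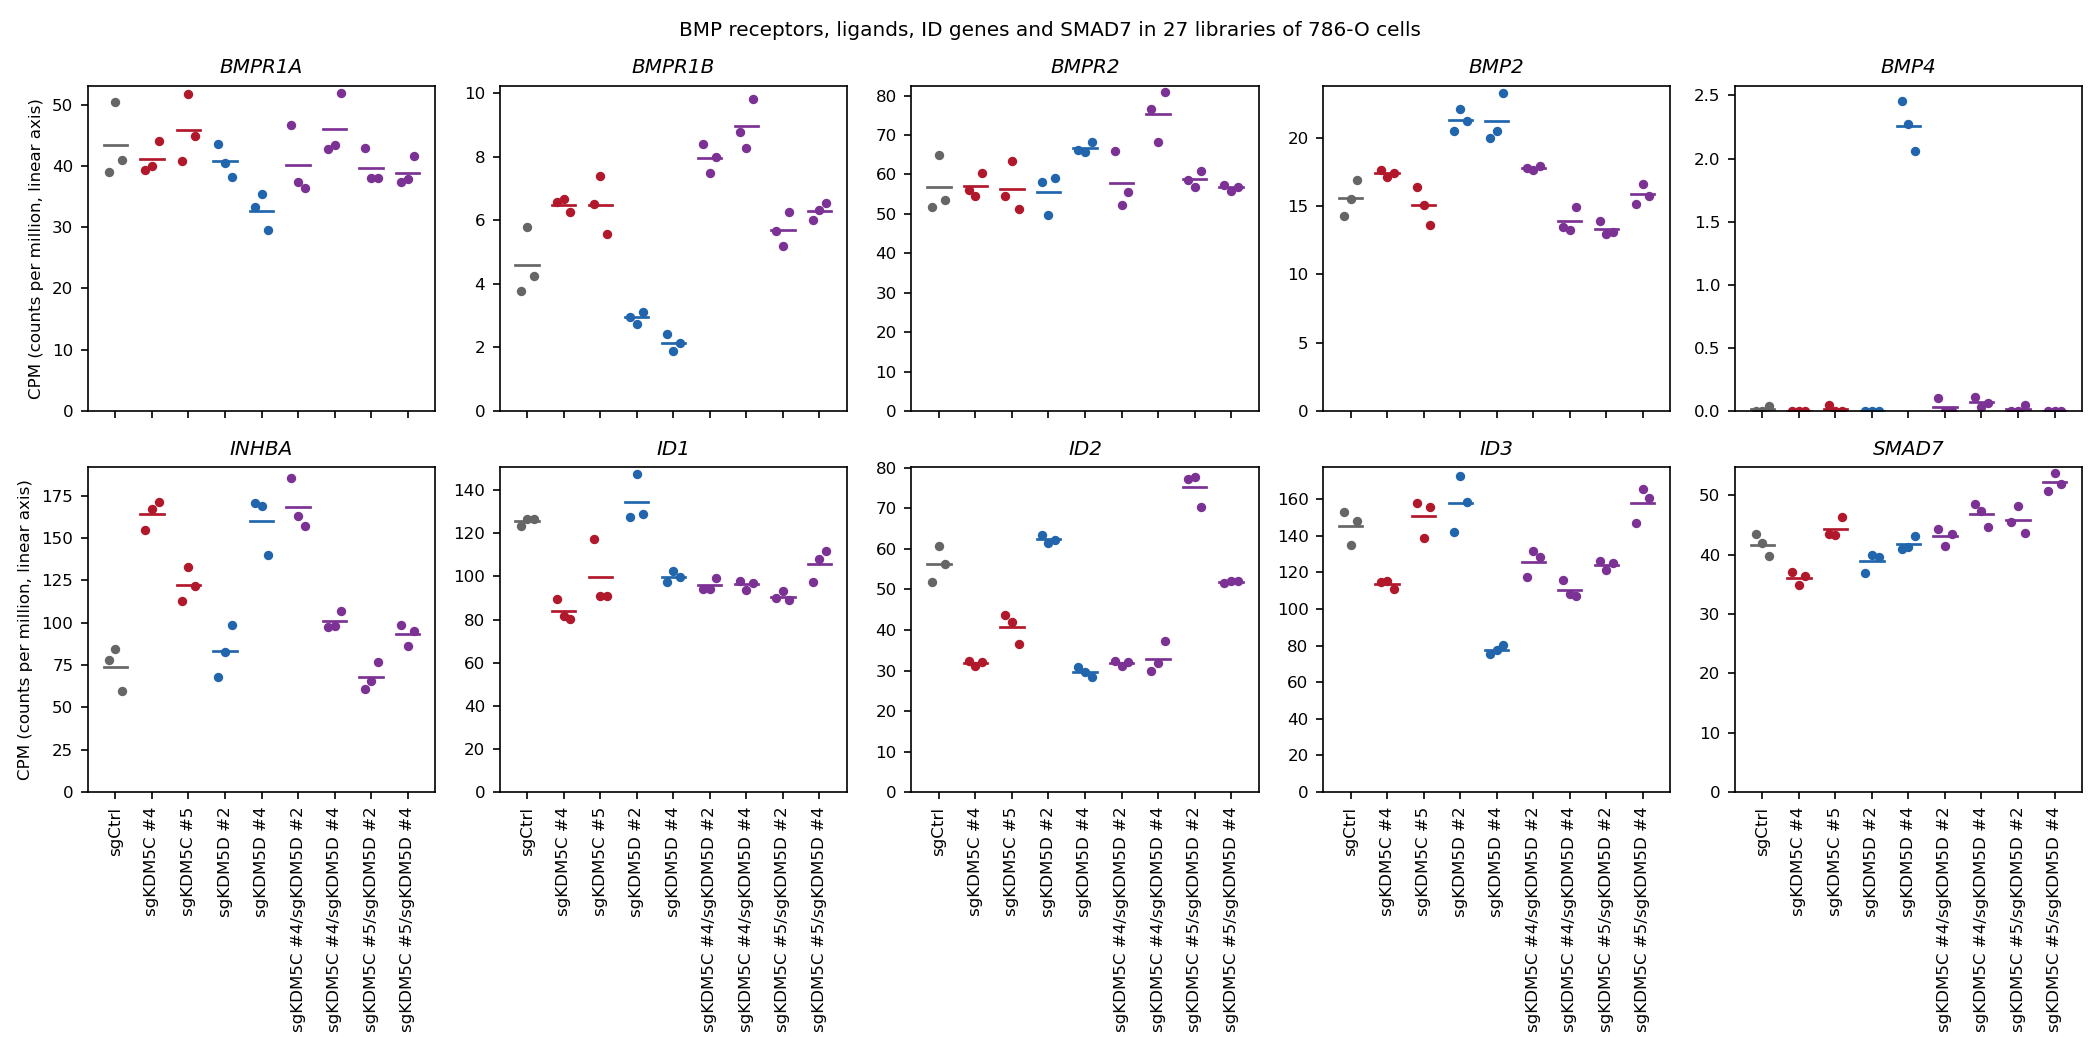
Levels of the 10 genes in the 27 libraries, in CPM on linear axes that start at 0. Each point is 1 library, each bar the mean of 3 replicates, and colours separate sgCtrl (grey), sgKDM5C (red), sgKDM5D (blue) and double mutant (purple) populations. BMP4 stands above 2 CPM in sgKDM5D #4 alone, and the ID2 replicates of sgKDM5C #5/sgKDM5D #2 lie at 70.4 to 77.8 CPM, above those of each other population.

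The receptors differed among themselves. BMPR1B, a type I receptor gene at chromosome 4, 95679106 to 96079599, on the plus strand of GRCh37, was the least abundant of the 3 and moved most. It measured 3.77, 5.79 and 4.24 CPM in sgCtrl, 2.97, 2.73 and 3.13 CPM in sgKDM5D #2, and 2.41, 1.89 and 2.14 CPM in sgKDM5D #4. Both sgKDM5D populations thus lay wholly below sgCtrl, as 35.4% of all tested genes in sgKDM5D #2 and 51.2% in sgKDM5D #4 lay wholly to one side of it. It measured 6.56, 6.66 and 6.25 CPM in sgKDM5C #4 and 6.52, 7.38 and 5.56 CPM in sgKDM5C #5, where 1 replicate fell under the highest sgCtrl value. In double mutant cells it measured 8.39, 7.48 and 8.0 CPM in sgKDM5C #4/sgKDM5D #2 and 8.77, 8.26 and 9.82 CPM in sgKDM5C #4/sgKDM5D #4. It measured 5.66, 5.19 and 6.25 CPM in sgKDM5C #5/sgKDM5D #2 and 5.99, 6.31 and 6.53 CPM in sgKDM5C #5/sgKDM5D #4. The mean levels spanned 4.17-fold, a range at the 88.8th percentile of all tested genes.

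By edgeR's quasi-likelihood test, BMPR1B fell in sgKDM5D #4 (log2 fold change -1.11 ± 0.15, SE, adjusted p 8.7e-07). It rose in sgKDM5C #4/sgKDM5D #2 (0.78 ± 0.13, adjusted p 6.7e-05) and in sgKDM5C #4/sgKDM5D #4 (0.95 ± 0.13, adjusted p 2.2e-06). The values of 0.49 in each sgKDM5C population and -0.65 in sgKDM5D #2 did not pass (adjusted p 0.0079, 0.0087 and 0.0020). The control libraries weighed on these calls. Without sgCtrl replicate 2, which holds the highest control value, BMPR1B was also called in sgKDM5C #4, sgKDM5C #5 and sgKDM5C #5/sgKDM5D #4 (0.71, 0.69 and 0.65). Without sgCtrl replicate 1 the call in sgKDM5C #4/sgKDM5D #2 was lost (adjusted p 0.0011) and a call in sgKDM5D #2 was gained (-0.77). All 3 calls were lost when sgCtrl was fitted with each population alone (adjusted p 0.0012 in sgKDM5D #4, 0.014 in sgKDM5C #4/sgKDM5D #2 and 0.0027 in sgKDM5C #4/sgKDM5D #4), with the size of the change about the same.

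BMPR1A and BMPR2, the more abundant receptors, varied little. BMPR1A (chromosome 10, 88516353 to 88692582, plus strand) averaged 32.7 CPM in sgKDM5D #4 and 38.9 to 46.0 CPM in the other 8 populations. Its value in sgKDM5D #4 was -0.41 ± 0.11 on the log2 scale and did not pass (adjusted p 0.0033). BMPR2 (chromosome 2, 203241050 to 203432474, plus strand) averaged 55.6 to 58.8 CPM in 7 populations, 66.8 CPM in sgKDM5D #4 and 75.2 CPM in sgKDM5C #4/sgKDM5D #4. The value in the last of these, 0.41 ± 0.09 (adjusted p 0.0012), was a change of 1.33-fold and missed both limits. The ranges of BMPR1A and BMPR2 over the populations lay at the 17.9th and 12.7th percentile of tested genes.

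Among the ligand genes, BMP4 (chromosome 14, 54416454 to 54425479, minus strand) was near 0 counts in each population except sgKDM5D #4. It had 55, 65 and 48 counts in sgKDM5D #4, or 2.45, 2.27 and 2.06 CPM. The other 24 libraries held 12 BMP4 counts together, with 17 of them at 0 and a maximum of 3. The sgKDM5D #4 libraries held 168 counts against 1 in sgCtrl, a ratio of 177 after scaling (95% exact interval 31.3 to 7025, counting error only; adjusted p 1.6e-08 by edgeR's quasi-likelihood test). Against sgKDM5D #2, with 0 counts, it was at least 56.1-fold higher, from a floor of 3 counts over the group. Against sgKDM5C #4/sgKDM5D #4, which carried the same sgKDM5D guide, the ratio was 34.0 (15.3 to 94.0). BMP4 passed the filter on low counts only through sgKDM5D #4, so a difference there was fixed by the filter. Even in that population it averaged 0.730 CPM per kilobase of exon, against 5.99 for BMP2.

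INHBA (chromosome 7, 41706766 to 41745432, minus strand) was the most abundant of the 3 ligand genes per kilobase of exon. INHBA-AS1, which overlaps it on the other strand, averaged 9.37 counts per library against 3155 for INHBA. INHBA measured 78.0, 84.5 and 59.7 CPM in sgCtrl, 154, 167 and 171 CPM in sgKDM5C #4, and 113, 133 and 122 CPM in sgKDM5C #5. It measured 67.7, 82.9 and 98.5 CPM in sgKDM5D #2 and 171, 169 and 140 CPM in sgKDM5D #4. Both sgKDM5C populations and sgKDM5D #4 lay wholly above sgCtrl, whereas sgKDM5D #2 overlapped it. Of all tested genes, 39.1% in sgKDM5C #4, 29.3% in sgKDM5C #5 and 51.2% in sgKDM5D #4 lay wholly to one side of sgCtrl. In double mutant cells INHBA measured 186, 163 and 157 CPM in sgKDM5C #4/sgKDM5D #2 and 97.5, 98.0 and 107 CPM in sgKDM5C #4/sgKDM5D #4. It measured 61.0, 65.6 and 76.7 CPM in sgKDM5C #5/sgKDM5D #2 and 98.6, 86.3 and 94.9 CPM in sgKDM5C #5/sgKDM5D #4.

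INHBA rose in sgKDM5C #4 (log2 fold change 1.15 ± 0.12, adjusted p 6.4e-08), sgKDM5C #5 (0.73 ± 0.12, 5.8e-05), sgKDM5D #4 (1.11 ± 0.12, 2.2e-08) and sgKDM5C #4/sgKDM5D #2 (1.19 ± 0.12, 2.9e-08). In the other 3 double mutant populations the values were 0.44, -0.13 and 0.33 and did not pass. Among the 9 populations sgKDM5C #4/sgKDM5D #2 had the highest mean and sgKDM5C #5/sgKDM5D #2 the lowest, a difference that was not tested directly. Leaving out sgCtrl replicate 3, the lowest control value, ended the call in sgKDM5C #5 (0.59, adjusted p 0.0011), and so did a fit of sgCtrl and sgKDM5C #5 alone (adjusted p 0.0072).

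BMP2 (chromosome 20, 6748333 to 6760893, plus strand), which encodes a ligand of BMPR1A and BMPR1B, was steadier. Its means were 21.3 CPM in sgKDM5D #2 and 21.2 CPM in sgKDM5D #4 against 15.6 ± 1.31 CPM in sgCtrl. All 6 sgKDM5D replicates lay above all 3 controls. Of all tested genes, 35.4% in sgKDM5D #2 and 51.2% in sgKDM5D #4 lay wholly to one side of sgCtrl. The log2 fold change was 0.45 ± 0.08 in each population (adjusted p 0.00027 and 5.9e-05), a change of 1.37-fold and 1.36-fold, under the 1.5-fold limit. In the other 6 mutant populations the values ran from -0.22 to 0.19.

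Of the target genes, ID2 (chromosome 2, 8818975 to 8824591, plus strand) moved in the most populations. It measured 51.8, 60.8 and 56.2 CPM in sgCtrl, 32.3, 31.1 and 32.1 CPM in sgKDM5C #4 and 43.7, 42.0 and 36.6 CPM in sgKDM5C #5. It measured 63.4, 61.4 and 62.2 CPM in sgKDM5D #2 and 30.8, 29.7 and 28.4 CPM in sgKDM5D #4. The sgKDM5D #4 replicates lay wholly below sgCtrl and those of sgKDM5D #2 wholly above it. In these populations 51.2% and 35.4% of all tested genes lay wholly to one side of sgCtrl. The value in sgKDM5D #2 was 0.15 ± 0.08 on the log2 scale and did not pass (adjusted p 0.17 by edgeR's quasi-likelihood test). In double mutant cells ID2 measured 32.5, 31.0 and 32.1 CPM in sgKDM5C #4/sgKDM5D #2 and 29.9, 31.8 and 37.2 CPM in sgKDM5C #4/sgKDM5D #4. It measured 77.4, 77.8 and 70.4 CPM in sgKDM5C #5/sgKDM5D #2 and 51.7, 52.1 and 52.0 CPM in sgKDM5C #5/sgKDM5D #4.

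ID2 fell in sgKDM5C #4 (-0.82 ± 0.08, adjusted p 8.3e-09), sgKDM5D #4 (-0.93 ± 0.08, 1.8e-10), sgKDM5C #4/sgKDM5D #2 (-0.82 ± 0.08, 6.9e-09) and sgKDM5C #4/sgKDM5D #4 (-0.77 ± 0.08, 1.4e-08). The 3 populations carrying the sgKDM5C #4 guide had means of 31.9, 31.9 and 33.0 CPM. Populations with the sgKDM5C #5 guide ran from 40.8 to 75.2 CPM, and none of them passed; sgKDM5C #5 alone stood at -0.47 ± 0.08 (adjusted p 5.0e-05, a change of 1.38-fold). ID2-AS1, an antisense gene that overlaps ID2, averaged 47.8 counts per library against 1219 for ID2, and whether the counting used strand is not given in the sources used here.

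ID3 (chromosome 1, 23884417 to 23885992, minus strand) measured 153, 135 and 148 CPM in sgCtrl and 75.5, 77.6 and 80.4 CPM in sgKDM5D #4. This was its only call against sgCtrl (-0.90 ± 0.07, adjusted p 5.9e-11). In the other 7 mutant populations the replicates ran from 107 to 173 CPM and the log2 fold changes from -0.40 to 0.12, and sgKDM5D #2 measured 142, 173 and 158 CPM, overlapping the control. ID1 (chromosome 20, 30193086 to 30194318, plus strand) measured 123, 127 and 126 CPM in sgCtrl and 89.7, 81.6 and 80.0 CPM in sgKDM5C #4, the lowest of the 9 means. Its value of -0.58 ± 0.08 there (adjusted p 3.7e-06) stood just inside the 1.5-fold limit, and leaving out sgCtrl replicate 1 or sgKDM5C #4 replicate 1 took it past (-0.59 and -0.63). ID1 ranged from -0.47 to -0.25 in the other mutant populations except sgKDM5D #2, at 0.10, and none of these passed. Outside sgKDM5D #2 their adjusted p ran from 2.8e-05 to 0.019 by edgeR's quasi-likelihood test, with changes under the 1.5-fold limit. The replicates of all 3 ID genes lay wholly below those of sgCtrl in sgKDM5D #4 and in the 3 populations with the sgKDM5C #4 guide. Replicates free of overlap in either direction were found for 51.2% of all tested genes in sgKDM5D #4 and for 39.1% in sgKDM5C #4, 34.5% in sgKDM5C #4/sgKDM5D #2 and 42.6% in sgKDM5C #4/sgKDM5D #4.

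SMAD7 (chromosome 18, 46446223 to 46477335, minus strand), which encodes an inhibitor of activated receptors, averaged 36.1 to 52.2 CPM. Its largest value, 0.32 ± 0.06 in sgKDM5C #5/sgKDM5D #4 (adjusted p 0.00021), was a change of 1.25-fold and was not called. In sgKDM5D #4, where ID2 and ID3 fell, it measured 41.0, 41.3 and 43.1 CPM against 43.5, 41.9 and 39.8 CPM in sgCtrl, a log2 fold change of 0.00 with an interval of -0.12 to 0.13.

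**Figure D2:**
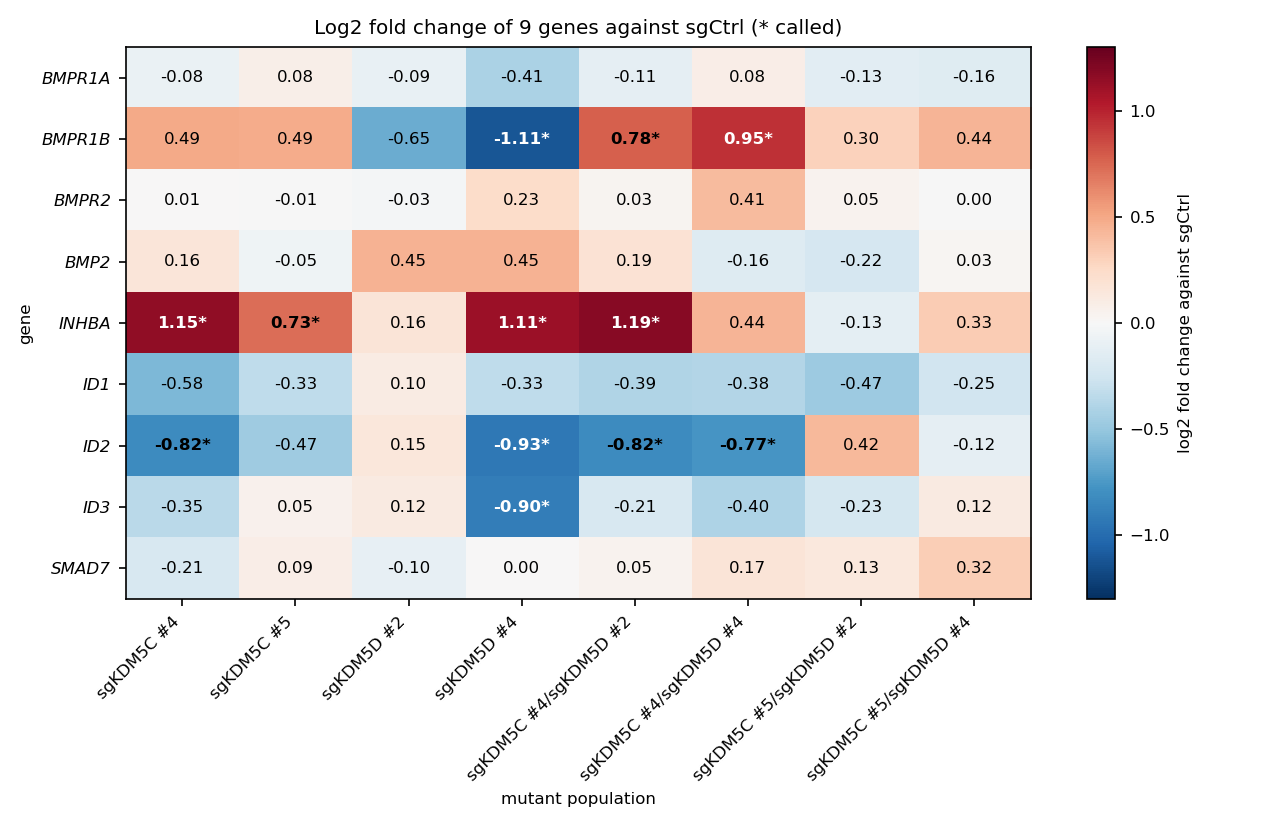
Log2 fold changes against sgCtrl for 9 of the genes (rows) in the 8 mutant populations (columns), from edgeR; red is higher, blue is lower, and an asterisk marks a call. BMP4 is left out because its control counts were near 0. The 4 calls of INHBA are all positive, the 4 of ID2 are all negative, and BMPR1B carries calls of both signs.

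Counted by population, sgKDM5D #4 had 4 of 9 genes called (INHBA higher, BMPR1B, ID2 and ID3 lower), against 18.1% of all tested genes. BMP4, whose call there was fixed by the filter, is left out of these counts. sgKDM5C #4 had 2 (INHBA higher, ID2 lower; 4.98%) and sgKDM5C #5 had 1 (INHBA; 5%). sgKDM5C #4/sgKDM5D #2 had 3 (BMPR1B and INHBA higher, ID2 lower; 6.06%) and sgKDM5C #4/sgKDM5D #4 had 2 (BMPR1B higher, ID2 lower; 9.1%). None was called in sgKDM5D #2 (3.23%), sgKDM5C #5/sgKDM5D #2 (12.7%) or sgKDM5C #5/sgKDM5D #4 (7.18%) by edgeR. In these, 2, 4 and 4 of the genes had an adjusted p under 0.05 and 2, 6 and 4 an unadjusted one, and DESeq2 called BMPR1B in sgKDM5D #2 and 0 genes in the other two. The 3 replicates did not overlap those of sgCtrl for 8 of the 9 genes in sgKDM5D #4, where this held for 51.2% of all tested genes, and for 3 in sgKDM5C #5, where it held for 29.3%.

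Guides against the same gene were compared directly. sgKDM5C #5 and sgKDM5C #4 differed in 0 of the 9 genes other than BMP4 by edgeR (3.71% of all tested genes) and in 0 by DESeq2, with 5 at an adjusted and 6 at an unadjusted p under 0.05. The largest of these were INHBA (-0.42 ± 0.12, adjusted p 0.014), ID3 (0.41 ± 0.07, 0.00015) and ID2 (0.36 ± 0.08, 0.0017). sgKDM5D #4 and sgKDM5D #2 differed in 3 of 9 genes (20.8%), beside BMP4, whose difference was fixed by the filter. INHBA (0.95 ± 0.12, adjusted p 2.7e-07) was higher in sgKDM5D #4, and ID2 (-1.07 ± 0.08, 9.5e-12) and ID3 (-1.02 ± 0.07, 5.3e-12) were lower. ID1 differed by -0.43 ± 0.08 (adjusted p 5.0e-05), which is under the 1.5-fold limit.

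The chromosomal neighbourhoods of several of these genes were shifted in sgKDM5D #4. The median log2 fold change of the 50 tested genes nearest to ID2 was -0.47 there, and it was 0.42 around INHBA, 0.29 around BMP2, 0.26 around BMPR1B and -0.26 around ID1, or over 0.25 in size for 5 of the 9 genes other than BMP4. In the other 7 mutant populations only 2 of 63 such medians were over 0.25 in size. Around BMP4, left out of these counts, the median in sgKDM5D #4 was 0.67, larger in size than around any of the 9 genes. Such medians were not counted over all tested genes, so it cannot be said whether the shift is particular to these genes. With the neighbourhood removed, ID2 stood at -0.46 in sgKDM5D #4 and was no longer past 1.5-fold, whereas INHBA (0.69), ID3 (-0.82) and BMPR1B (-1.38) stayed called. The difference between sgKDM5D #4 and sgKDM5D #2 in INHBA came to 0.39 and was not called, and that in BMPR1B came to -0.87 and was.

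**Figure D3:**
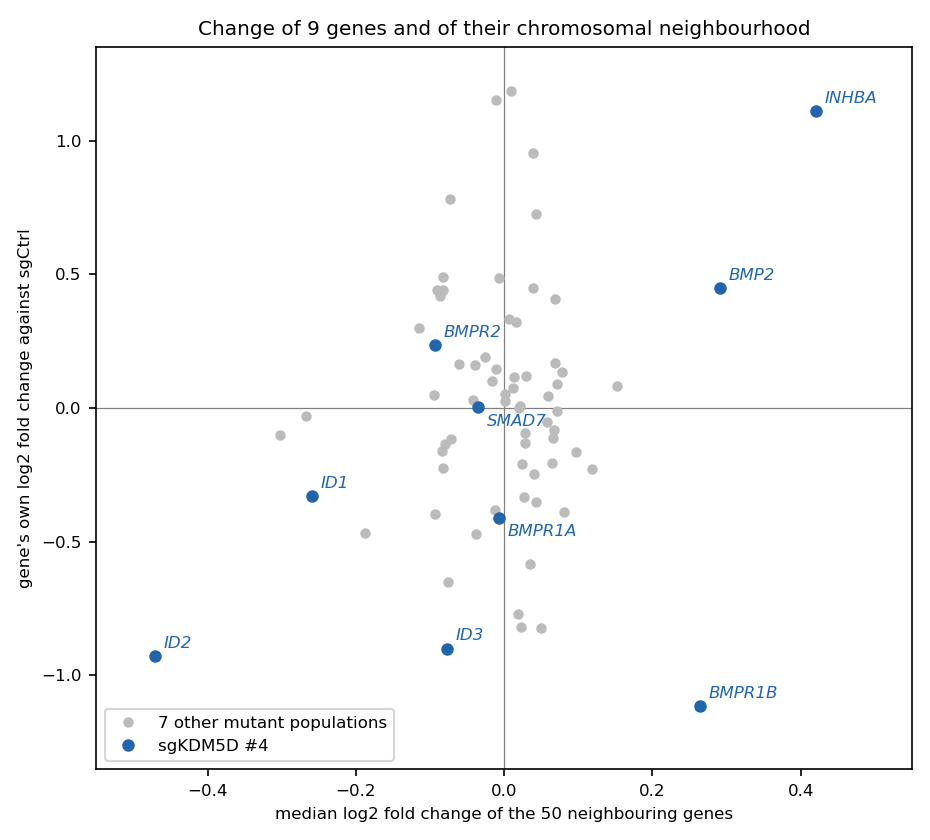
Log2 fold change of 9 of the genes against sgCtrl (vertical axis) and the median log2 fold change of the 50 tested genes nearest to each on its chromosome (horizontal axis). Blue points are sgKDM5D #4, grey points the 7 other mutant populations. The neighbourhoods of INHBA and BMP2 lie to the right and those of ID2 and ID1 to the left in sgKDM5D #4, and BMPR1B lies low although the median of its neighbours is positive.

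Between double mutant cells and KDM5D single mutants the receptor gene BMPR1B differed most. The mean of the 4 double mutant populations exceeded the mean of both sgKDM5D populations by 1.5 ± 0.09 on the log2 scale, 2.83-fold (adjusted p 2.6e-13), and it was the single one of the 9 genes other than BMP4 called (13% of all tested genes). Of the 9, 7 had an adjusted p under 0.05 by edgeR. After BMPR1B the largest was BMP2, at -0.49 ± 0.05 (adjusted p 4.2e-09), under the 1.5-fold limit. Against the sgKDM5C mean, 0 of these 9 genes were called by edgeR (1.62%) and 0 by DESeq2, with 4 at an unadjusted p under 0.05 and 3 at an adjusted one: INHBA at -0.48 ± 0.07, ID2 at 0.32 ± 0.05 and SMAD7 at 0.23 ± 0.04. Averages over guides hide the spread described above for INHBA and ID2. The SE and p of these averages measure the spread of replicates within populations, not that between guides.

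The interaction asks whether the double mutant value departs from the sum of both single changes. It too averages over guides, and its SE and p have the same limit. BMPR1B (1.01 ± 0.15, adjusted p 8.0e-06), INHBA (-1.12 ± 0.13, 2.3e-07) and ID2 (0.71 ± 0.08, 1.6e-07) were called, against 6.89% of all tested genes. The mean level of BMPR1B was below sgCtrl in both sgKDM5D populations and above it in all 4 double mutant populations. INHBA was 2.17-fold lower than the sum of the single changes and ID2 1.64-fold higher. With the neighbourhood removed ID2 came to 0.48 and was no longer past 1.5-fold. BMP2 stood at -0.55 ± 0.09 (adjusted p 3.0e-05), under the limit. Within single guide combinations, 5 genes were called for sgKDM5C #4 with sgKDM5D #4 (15.1% of all tested genes), 4 for sgKDM5C #5 with sgKDM5D #4 (14.5%), 3 for sgKDM5C #5 with sgKDM5D #2 (5.06%) and 0 for sgKDM5C #4 with sgKDM5D #2 (2.1%). In the last of these ID2 stood at -0.15 and INHBA at -0.13, against 0.74 to 1.28 for ID2 and -1.82 to -1.02 for INHBA in the other 3 combinations.

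The rest of the pathway was read from 7 lists of 87 genes, of which 56 were tested. Of these, 28 were called in at least 1 mutant population, with 34 calls higher and 26 lower, against 32.4% of all tested genes called at least once. Without the 4 libraries named above 27 were called, 25 of them among the 28. The shift of chromosomal neighbourhoods in sgKDM5D #4 was not removed from the values of these listed genes. By list, 1 of 6 type I and type II receptors, 2 of 4 co-receptors, 8 of 11 ligands (7 of 10 without BMP6, which passed the filter on low counts through 1 population), 3 of 7 secreted antagonists, 5 of 14 SMAD proteins and regulators, 9 of 11 other target genes and 0 of 3 E proteins were called somewhere.

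Secreted antagonists, which bind BMPs outside the cell, were called for 3 of the 7 tested genes. CHRDL1, a chordin-like antagonist, measured 6.46, 5.55 and 7.24 CPM in sgCtrl and 181, 166 and 153 CPM in sgKDM5D #4 (4.70 ± 0.14, adjusted p 5.4e-20). It was lower in sgKDM5C #4 (-1.12), sgKDM5C #5 (-0.81), sgKDM5D #2 (-1.09) and sgKDM5C #4/sgKDM5D #2 (-1.57). NOG, which encodes noggin, rose from 0.318 ± 0.242 to 4.73 ± 0.847 CPM in sgKDM5D #4 (3.82 ± 0.32, adjusted p 2.1e-10). It also rose to 1.28 and 1.98 CPM in the double mutant populations with sgKDM5C #4. In sgKDM5C #4 alone NOG stood at 1.59 ± 0.38 and did not pass (adjusted p 0.0027 by edgeR's quasi-likelihood test). BMPER, the other antagonist called in sgKDM5D #4, rose by 1.27 ± 0.22 and was named after its values were seen, so that all 3 antagonist calls in that population were higher, where 10.7% of all tested genes were called higher and 7.44% lower. The co-receptor gene ENG, for endoglin, also rose there, from 1.13 ± 0.307 to 12.8 ± 0.635 CPM (3.48 ± 0.18, adjusted p 1.1e-14), and fell in sgKDM5C #5 (-1.74) and sgKDM5C #5/sgKDM5D #4 (-1.52). These falls rest on 6 to 14 and 6 to 12 counts per library, against 18 to 37 in sgCtrl. TGFBR3, for betaglycan, rose in sgKDM5C #4/sgKDM5D #2 (0.99) and sgKDM5C #4/sgKDM5D #4 (1.20). Its values of 0.82 in sgKDM5C #4, 0.77 in sgKDM5D #2 and -0.62 in sgKDM5C #5 did not pass.

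Of the SMAD genes and regulators, 4 of 14 fell and 0 rose in sgKDM5D #4, against 7.44% and 10.7% of all tested genes. SMAD9, which encodes a SMAD activated by BMP receptors, fell from 15.8 ± 3.28 to 4.60 ± 0.107 CPM (-1.79 ± 0.13, adjusted p 2.1e-11), and SMAD6, for an inhibitory SMAD, from 11.2 ± 1.25 to 5.75 ± 1.20 CPM (-0.96 ± 0.13, 7.1e-07). NEDD4L, for a ubiquitin ligase, fell by 0.74 on the log2 scale, and SMAD5, named after its values were seen, by 0.73. SMAD6 was also lower in sgKDM5C #4 (-0.96), sgKDM5C #4/sgKDM5D #2 (-0.88) and sgKDM5C #4/sgKDM5D #4 (-0.80). ID2 was called lower in these 4 populations too, and all of them share the sgCtrl libraries. In sgKDM5D #2 SMAD6 moved the other way, by 0.58 ± 0.12 (adjusted p 0.00093 by edgeR's quasi-likelihood test), just inside the 1.5-fold limit. SMAD9 was lower in sgKDM5C #4 (-0.78) and sgKDM5C #4/sgKDM5D #2 (-0.68), and NEDD4L was higher in 3 double mutant populations (0.59 to 0.62).

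Other target genes of the pathway fell more often than they rose in sgKDM5D #4, with 4 of 11 lower and 1 higher (7.44% and 10.7% of all tested genes). ATOH8, a transcription factor gene induced by BMPs, went from 27.2 ± 1.5 to 12.8 ± 0.790 CPM (-1.09 ± 0.11, adjusted p 3.2e-09), and GATA2 fell by 1.03 on the log2 scale. ID4, the remaining ID gene, fell from 1.86 ± 0.441 to 0.273 ± 0.117 CPM, and MSX2 fell from 1.45 ± 0.0997 CPM to 1 to 4 counts per library; these genes and GATA2 were named after their values were seen. CCN2, a target of TGF-beta and other signals, was higher in 6 of the 8 mutant populations, by 0.72 to 1.14, sgKDM5D #4 included. ATOH8 rose in sgKDM5C #5/sgKDM5D #2 (0.86 ± 0.10, adjusted p 1.7e-07), the population with the highest ID2 level.

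**Figure D4:**
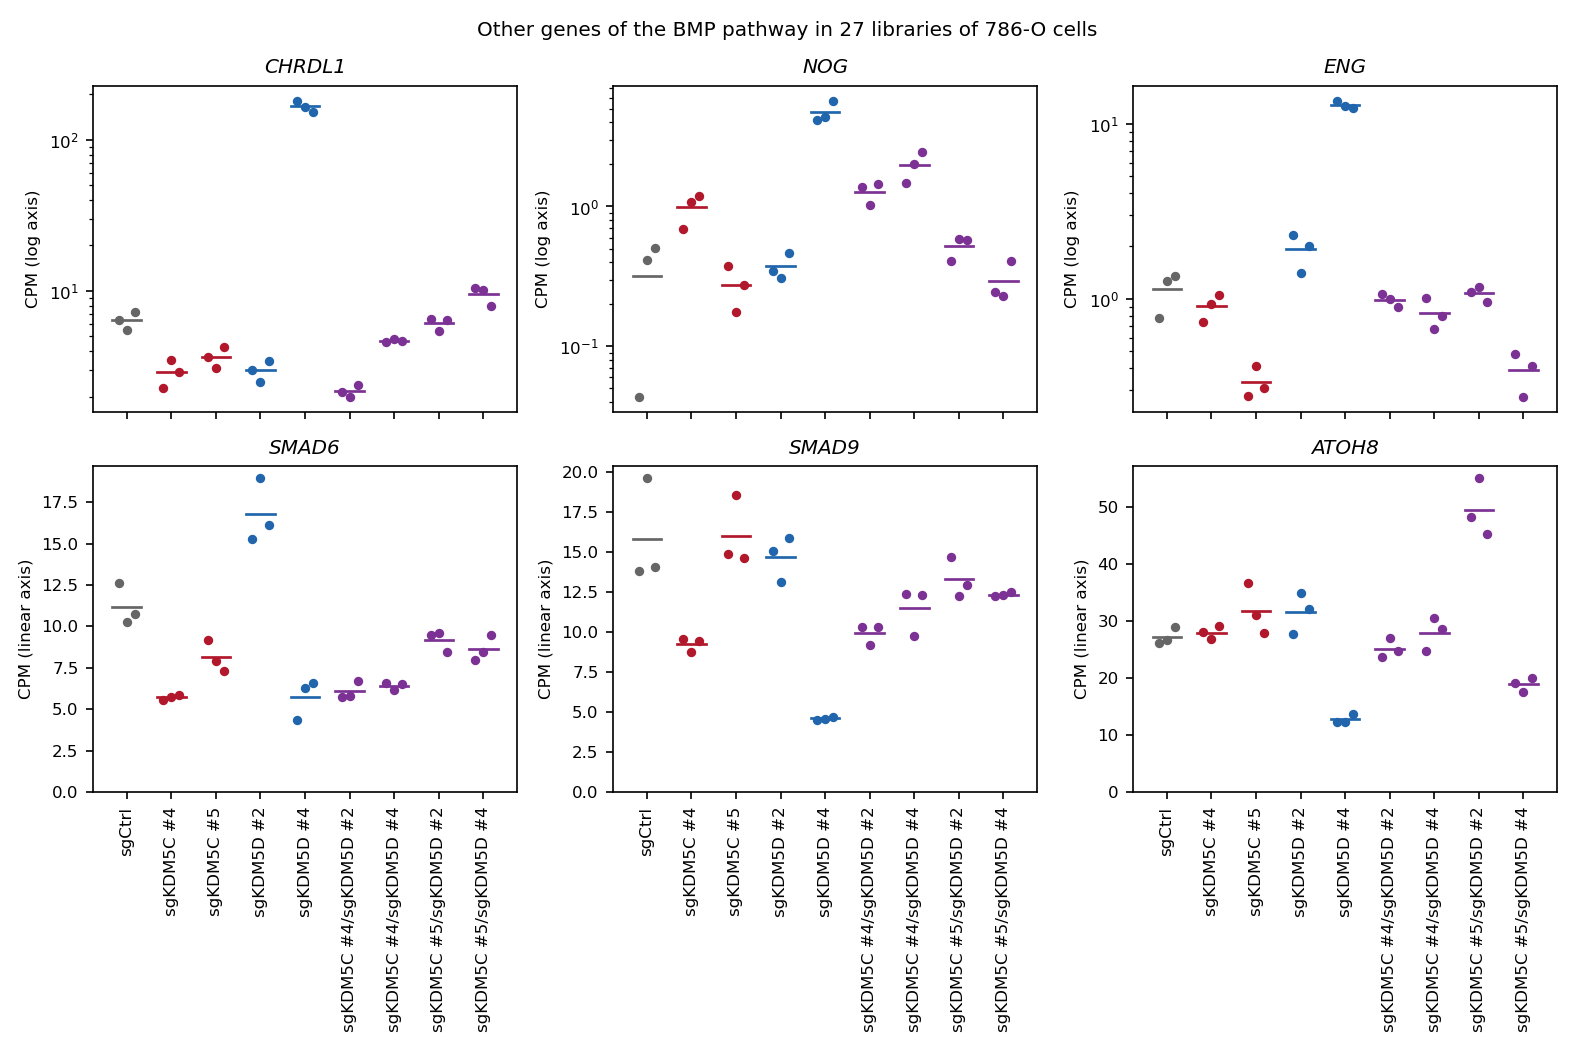
Levels of 6 other pathway genes in the 27 libraries, in CPM, on log axes in the upper row (CHRDL1, NOG, ENG) and on linear axes from 0 in the lower row (SMAD6, SMAD9, ATOH8). Points are libraries, bars are means of 3 replicates, and colours are grey for sgCtrl, red for sgKDM5C, blue for sgKDM5D and purple for double mutants. In sgKDM5D #4 the 3 genes of the upper row are at their highest and the 3 of the lower row at or near their lowest.

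Among the 11 other ligand genes 12 calls were higher and 4 lower, over 8 populations in which 4.84% of gene by population pairs were called higher and 3.45% lower over all tested genes; 10 were higher without BMP6. INHBE, for another activin subunit, was higher in 5 populations, from 0.193 ± 0.0686 CPM in sgCtrl to 4.33 ± 0.944 CPM in sgKDM5C #5/sgKDM5D #2 (4.47 ± 0.31, adjusted p 2.1e-11). GDF15, a stress-induced ligand, was higher in sgKDM5C #4/sgKDM5D #2 (0.96) and sgKDM5C #5/sgKDM5D #2 (1.52) and lower in sgKDM5D #4 (-1.07). BMP6 was called higher in sgKDM5C #4/sgKDM5D #2 and sgKDM5C #4/sgKDM5D #4, at 0.439 ± 0.133 and 1.18 ± 0.638 CPM, against 0 or 1 count in each sgCtrl library; it passed the filter on low counts only through the second of these, so a difference there was fixed by the filter. TGFB3 and TGFB1, for ligands of the TGF-beta receptors, rose in sgKDM5D #4 (2.55 ± 0.19 and 0.61 ± 0.10), as did the receptor gene TGFBR2 (1.25 ± 0.05, from 73.1 ± 1.33 to 175 ± 0.678 CPM); these too were named after their values were seen.

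Genes whose level followed that of a member most closely were ranked by Pearson's r over the 9 population means, among 11650 genes. This describes likeness in these cells, over means that include the shared sgCtrl population, and carries no p. ID1 was followed by CYP27B1, EIF2B1 and AC127496.1 (0.938 to 0.951), ID2 by SRGAP2, UCK1 and HADH (0.947 to 0.965), and ID3 by AP3D1, DTL and TPRA1 (0.956 to 0.968). BMPR1B was followed by ENSG00000267010, DUSP8 and NEK3 (0.978 to 0.987), BMP2 by LUZP1, STK10 and RRBP1 (0.935 to 0.944), INHBA by IER3, BAG6 and DDB1 (0.913 to 0.958), and BMP4 by UFSP2, ADH5 and ZFYVE26 (0.985 to 0.987). For BMP4 the r rests on sgKDM5D #4 alone. No ID gene was among the 3 nearest to another, with r of 0.626 for ID2 and ID3, 0.485 for ID1 and ID3 and 0.483 for ID1 and ID2. Among the 10 genes the strongest relation, picked after all pairs were seen, was an opposite one between INHBA and ID2 (r -0.905, Spearman's rho -0.90).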

How the data were processed

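RNA was sequenced from 27 libraries of 786-O cells, 9 populations with 3 replicates each, prepared with a stranded kit. Per the labels, the authors deposited raw counts per Ensembl gene without normalization. The submitters' processing notes name Trimmomatic 0.38, STAR 2.5.2b and GRCh37; the counting tool and its annotation are not given in the sources used here. Populations were taken from the sample titles. Nothing in the labels says that replicates were separate cultures, so p-values measure the spread between these libraries, which may be technical.

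Genes with at least 120 counts over all libraries were kept, TMM factors were applied, and all libraries were fitted with one mean per population in edgeR 4.0.16 (R 4.3.3). Each p is two-sided and comes from the quasi-likelihood test, adjusted by Benjamini and Hochberg's method across 17016 genes, and a call needed an adjusted p under 0.001 and over 1.5-fold; this filter and these thresholds are those of the study. A total of 13 contrasts was fitted. CPM are counts scaled to TMM library sizes; ± is the SD over 3 replicates for levels and the SE for log2 fold changes. No list was given a set test. The fit was tested on simulated data.

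The 10 genes and the lists were chosen with earlier results of these data known. Named besides them were KDM5C and KDM5D, up to 3 genes of each list with the largest change among those called in at least 2 populations, and the 3 genes nearest in pattern to ID1, ID2, ID3, BMPR1B, BMP2, BMP4 and INHBA, with a mean log2 CPM of at least 1; exceptions are marked, and 1 gene that the rule names is not reported here. Of the listed symbols, GDF2, GDF10, LHX1 and PECAM1 matched no identifier. Gene positions and exon lengths came from a GENCODE annotation on GRCh37, promoters from RefSeq on GRCh38.p14.

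Alternatives were RLE factors, no filter, a replicate block, an adjusted p under 0.05, a change over 2-fold, a fit of only the populations in a contrast, removal of the median of 50 neighbouring genes, DESeq2 1.42.0 and leaving out each library. Those chosen after seeing the data were a term for, and leaving out, the 4 libraries with the highest scores on the first principal component, and the interaction within each guide combination.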

Additional observations from a re-analysis of the deposited data

Results flagged for a closer look

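For 3 genes the change with KDM5D guides differed between cells with and without a KDM5C guide, by the interaction term of the edgeR fit with Benjamini-Hochberg adjustment: BMPR1B (log2 1.01, adjusted p 8.0e-06), INHBA (-1.12, adjusted p 2.3e-07) and ID2 (0.71, adjusted p 1.6e-07). For BMPR1B the term was positive in each of the 4 guide combinations, at 0.94 and 0.46 with sgKDM5D #2 and 1.58 and 1.07 with sgKDM5D #4 (sgKDM5C #4 first), although it was called only in both combinations with sgKDM5D #4. INHBA was near 0 for sgKDM5C #4 with sgKDM5D #2, at -0.13 ± 0.17 (SE), and negative in the others. It stood at -1.02 for sgKDM5C #5 with sgKDM5D #2, and at -1.82 and -1.50 with sgKDM5D #4. ID2 was near 0 for sgKDM5C #4 with sgKDM5D #2 and 0.98, 0.74 and 1.28 in the others. The 4 combinations share the sgCtrl libraries and single mutant populations, so their terms are not independent. No explanation of these differences was tested.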

How the results depend on the processing

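The 13 calls of the 10 genes against sgCtrl, BMP4 included, stayed 13 with RLE factors and became 14 without a filter, 14 with DESeq2 and 14 at an adjusted p under 0.05, each including the 13. The replicate numbers did not pair the samples (mean correlation of same-numbered deviations -0.055, over 0.1 in 33 of 108 pairs), and with the replicate block the number of genes called stayed at 2, 1, 0, 5, 3, 2, 0 and 0 in the 8 populations. A change over 2-fold left 1 gene in sgKDM5C #4, 0 in sgKDM5C #5, 3 in sgKDM5D #4, 1 in sgKDM5C #4/sgKDM5D #2 and 0 in sgKDM5C #4/sgKDM5D #4, by the construction of that limit. When only the populations of a contrast were fitted, and so fewer samples, 10 calls were made, 9 of them among the 13: sgKDM5C #5 had 0 and sgKDM5C #4/sgKDM5D #4 had 1, BMPR1B was also lost in sgKDM5D #4 and sgKDM5C #4/sgKDM5D #2, and ID1 was added in sgKDM5C #4. An adjusted p under 0.05, and DESeq2, each gave 1 in sgKDM5D #2. Removal of the neighbouring genes gave 1, ID2, between sgKDM5C #5 and sgKDM5C #4; the cause was not tested. A term for the 4 libraries with the highest component scores gave 4 in sgKDM5C #4, with BMPR1B and ID1 added, and leaving them out added BMPR1B in sgKDM5C #4 and in sgKDM5C #5/sgKDM5D #4, where it was the 1 gene called. For sgKDM5C #4 with sgKDM5D #2 the interaction was called in 0 genes and ID2 turned to -0.15, and for sgKDM5C #4 with sgKDM5D #4 it was called in 5.

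Leaving out each library gave 2 to 3 genes in sgKDM5C #4, 0 to 2 in sgKDM5C #5, 0 to 1 in sgKDM5D #2, 5 in sgKDM5D #4, 2 to 3 in sgKDM5C #4/sgKDM5D #2, 2 in sgKDM5C #4/sgKDM5D #4, 0 in sgKDM5C #5/sgKDM5D #2, 0 to 1 in sgKDM5C #5/sgKDM5D #4, 0 between the sgKDM5C guides, 4 between the sgKDM5D guides, 0 and 1 for double mutant against sgKDM5C and sgKDM5D cells, and 3 to 4 for the interaction, where BMP2 was added without sgCtrl replicate 3. Differences under 1.5-fold were not called whatever their adjusted p, by the construction of that limit. BMP4 is counted in all these numbers for sgKDM5D #4 and between the sgKDM5D guides. Its difference there was fixed by the filter, which was set on all libraries, so its calls carry no weight here. At 0 to 3 counts BMP4 cannot be compared among the other populations.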
